A study of Saccharomyces cerevisiae with 6 samples.

Results

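Aminoacyl-tRNA synthetases join each amino acid to its transfer RNA, and budding yeast makes most of them in separate versions for the cytosol and for the mitochondrion. The 32 genes described here are 18 cytosolic synthetases, 13 mitochondrial synthetases and ARC1, a cofactor that binds the methionyl and glutamyl enzymes and their transfer RNAs. They were taken by gene name from the array annotation, were each read by 1 probe set, and belong to 5656 measured genes. Of the 18 cytosolic enzymes, 4 (ALA1, GRS1, HTS1 and VAS1) also supply the mitochondrion from the same gene. The other 14 were classed here as cytosolic only, and a mitochondrial role of any of them was not examined. All 32 genes entered the fit of 5462 genes.

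The series followed a yeast that had been given a xylose pathway. RNA was hybridised to 6 Affymetrix GeneChip arrays, 1 for each condition, with no replicate. Strain YSX3 is MATalpha and carries XYL1 with LEU2 at leu2, XYL2 with URA3 at ura3, and XYL3 with NEO at Ty3. These are xylose genes known from the yeast Pichia stipitis, and the mutant bears the name of this strain. Its oxygen-limited cultures grew in YP medium on xylose or on glucose at 40 g/L and were collected at an OD600 of 30. The respiration-deficient mutant FPL-YSX3P, called petite in the sample names, grew on glucose to an OD600 of 1, and was then moved to xylose for 24 h; its sugar concentration and oxygen supply are not given in the labels. The aerobic YSX3 cultures grew on xylose or on glucose at 20 g/L and were collected at an OD600 of 1. Oxygen supply, sugar concentration and cell density therefore cannot be told apart in the oxygen-limited comparison, and sugar and the change of medium cannot be told apart in the petite pair.

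In yeast the cytosolic synthetases feed the translation of nuclear messenger RNAs, and their transcripts belong to the genes of protein synthesis that are known to follow growth. The mitochondrial enzymes are encoded in the nucleus, imported, and used to translate the few proteins of the mitochondrial genome, most of them subunits of the respiratory chain. A starvation for amino acids leaves transfer RNAs uncharged, which is known to activate the kinase Gcn2 and the transcription factor Gcn4.

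Values are intensities scaled to the same median on each array, with a floor of 61.7 below which a probe set is treated as unmeasured. They come from bulk RNA, so fewer cells that carry a transcript and less of it per cell cannot be told apart. Before scaling, the oxygen-limited and petite arrays had medians 0.31 to 0.38 above the aerobic glucose array on the log2 scale, and 88.0 to 90.5% of genes lay above the floor on each array. OLI1, a gene of the mitochondrial genome, read 18.3 on xylose and 13.8 on glucose in the petite cells, against 2280.4 and 2313 in aerobic cells. COX1, COB and ATP6 of the same genome lay below the floor on both petite arrays, while COX3 read 204 and 137, against 43.6 and 57.9 in aerobic cells. ANB1, known as a gene of low oxygen, read 79.9 and 152 in oxygen-limited cells, against 303 and 343 in aerobic cells, and was thus lower where its known behaviour would place it higher. Of 6 genes listed as markers of low oxygen, 0 were called higher and ANB1 was called lower in oxygen-limited cells, where 8.04% and 16.0% of all genes were. Estimates of 4 of the 6 lay above 0, the highest at 0.36 for HEM13. DAN1 lay below the floor on all aerobic and oxygen-limited arrays, so it could not be called. AAC3 lay above the floor only on the glucose arrays of that comparison. Of the respiratory genes CYC1, COX5A and CYC7, CYC1 was called lower in oxygen-limited cells (log2 -1.45) and CYC7 higher (log2 1.74, limma adjusted p = 0.0178 each). COX5A was not called. The alpha-cell receptor gene STE3 lay between 740.3 and 1705 on all 6 arrays, while the alpha-factor gene MF(ALPHA)1 read 259 in petite cells on xylose and between 2393 and 3947 elsewhere. The second alpha-factor gene, MF(ALPHA)2, read 142 on xylose and 1472 on glucose in oxygen-limited cells, 144 and 1408 in petite cells, and 315 and 1415 in aerobic cells. It was called lower on xylose (log2 -2.95, limma adjusted p = 0.0323), where 0.0732% of all genes were. Of the 4 listed genes of a cells, MFA1 read 488 to 1245, MFA2 135 to 287, STE2 36.6 to 102 and BAR1 29.9 to 83.3 over the 6 arrays. STE2 and BAR1 lay below the floor on both aerobic arrays. MFA2 was called higher in oxygen-limited cells (log2 0.75, limma adjusted p = 0.0414), where 8.04% of all genes were.

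Most cytosolic enzymes ranked the arrays alike, and the mitochondrial ones ranked them in other orders. Of the 18 cytosolic enzymes, 14 had their highest value on aerobic glucose, and the lowest value fell on petite xylose for 11 and on oxygen-limited xylose for 6. Both aerobic arrays lay above each of the other 4 for 13 of the 18, against 2 of the 13 mitochondrial enzymes (MSF1 and SLM5) and 26.3% of all genes. The 5 cytosolic exceptions were CDC60, GLN4, ILS1, WRS1 and ALA1. The distance between the highest and lowest array had a median of 1.81 on the log2 scale among the cytosolic enzymes, with 1.10 for DPS1 and 3.89 for ALA1 at the ends. Among the mitochondrial enzymes that distance had a median of 0.83, with 0.42 for NAM2 and 1.87 for MST1 at the ends, and among all genes it was 1.08. MSW1 and MSF1 lay below the floor on some arrays, where the floor stands for their value.

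**Figure D1:**
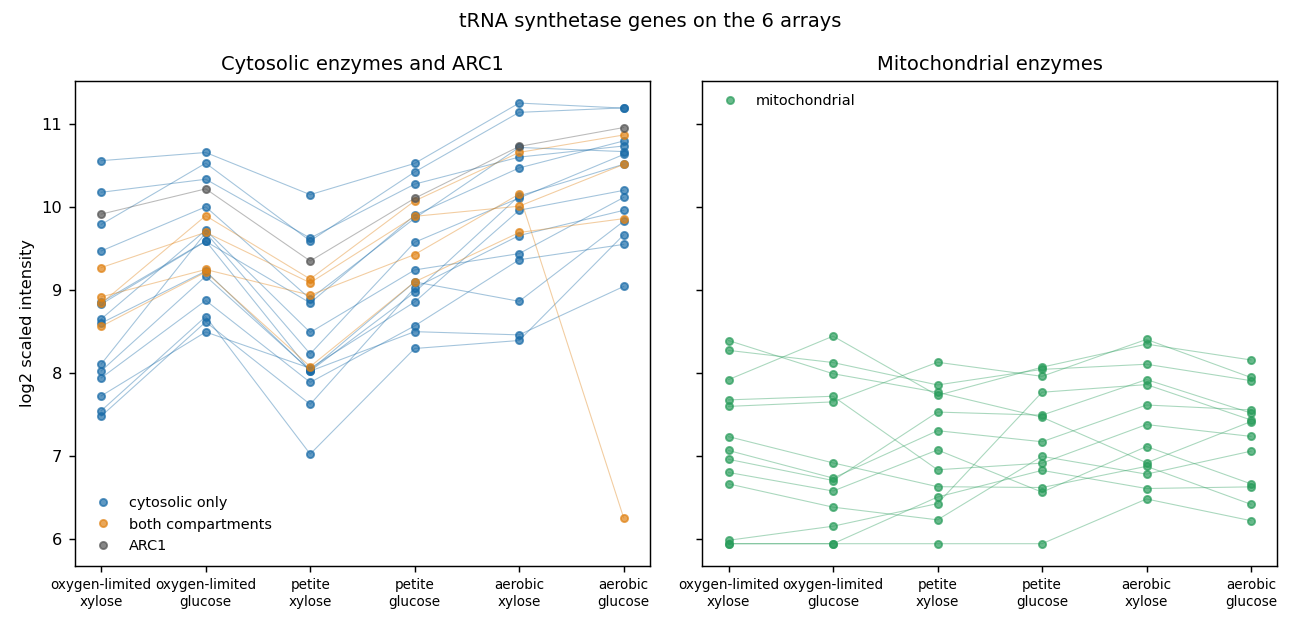
Each line is 1 gene, with log2 scaled intensity on the vertical axis and the 6 arrays on the horizontal axis; cytosolic enzymes and ARC1 are in the left panel and mitochondrial enzymes in the right panel. The cytosolic lines dip on both xylose arrays of the oxygen-limited and petite cells, ALA1 drops on aerobic glucose alone, and the lowest mitochondrial points lie at the floor of 61.7.

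Xylose was compared with glucose in each of the 3 backgrounds to ask which transcripts follow the sugar. The cytosolic synthetases were lower on xylose, with a median of -0.61 on the log2 scale over the 18 enzymes, while the 13 mitochondrial enzymes had a median of 0.07 and all genes one of -0.03. CDC60 was the only member whose difference passed the test, and 17 of the 18 cytosolic estimates lay below 0, against 53.2% of all genes. Xylose lay below glucose in all 3 backgrounds for 15 of the 18 cytosolic enzymes and 0 of the 13 mitochondrial enzymes, where 23.3% of all genes did so. For MSW1 and MSF1 some of these pairs had both arrays at the floor, and the mitochondrial median was 0.07 without them too.

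CDC60 (YPL160W), the leucyl-tRNA synthetase, read 187 on xylose and 410.1 on glucose in oxygen-limited cells, 130.3 and 314 in petite cells, and 336 and 810.3 in aerobic cells. The xylose array was the lower one in 3 of 3 pairs, with differences of -1.13, -1.27 and -1.27 on the log2 scale, although the aerobic xylose value lay within the range of the glucose values of the other backgrounds. CDC60 was 2.34-fold lower on xylose (log2 -1.22, SE 0.143, limma adjusted p = 0.0435). It was 1 of 4 genes called lower on xylose, which is 0.0732% of the genes tested, while 37 (0.677%) were called higher. The estimate lay between -1.27 and -1.18 in the alternatives tried, but the adjusted p lay between 0.0284 and 0.593 and the call was lost in 9 of 12 of them.

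ILS1, the isoleucyl enzyme, read 261 on xylose and 574 on glucose in oxygen-limited cells, 262 and 547 in petite cells, and 466 and 907 in aerobic cells. The 3 xylose values lay below the 3 glucose values, yet the estimate of -1.06 (SE 0.143) missed the threshold (limma adjusted p = 0.0563). KRS1, the lysyl enzyme, read 276 and 825 in oxygen-limited cells, 300.4 and 762 in petite cells, and 1101 and 1584 in aerobic cells, with xylose first. Its 2 aerobic values stood above both glucose values of the other backgrounds, so the sugars overlapped across backgrounds and differed within each of them (estimate -1.15, SE 0.242, limma adjusted p = 0.112).

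WRS1, the tryptophanyl enzyme, read 402 on xylose and 843 on glucose in oxygen-limited cells, 359 and 605 in petite cells, and 693 and 1107 in aerobic cells. Its estimate was -0.83 (SE 0.158, limma adjusted p = 0.101), with xylose the lower array of each pair. TYS1, the tyrosyl enzyme, had an estimate of -0.95 (SE 0.247, limma adjusted p = 0.148). Without adjustment 14 of the 18 cytosolic enzymes lay below p of 0.05 in the lower direction, where 9.79% of all genes did. DPS1, the aspartyl enzyme, had the smallest estimate among the cytosolic enzymes at -0.14 (SE 0.160).

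**Figure D2:**
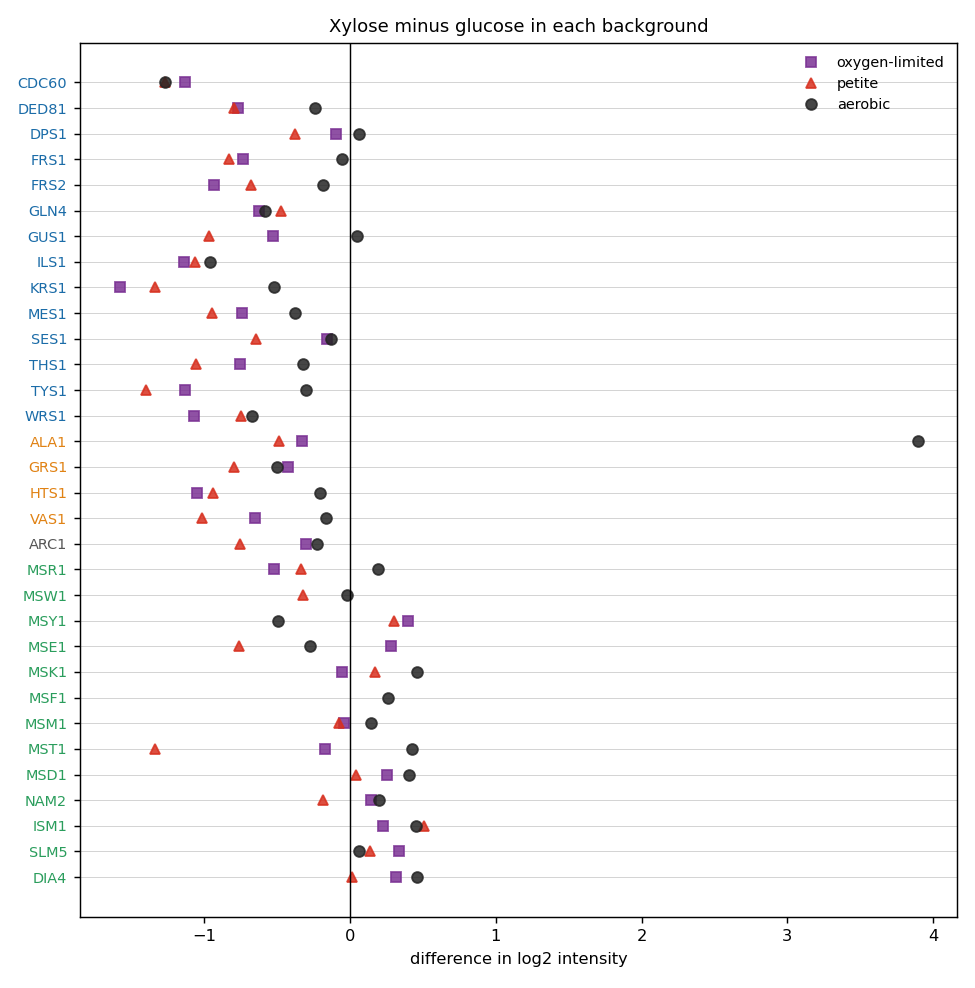
The horizontal axis gives the difference in log2 intensity of the xylose array minus the glucose array, and each row is 1 gene, with squares for oxygen-limited, triangles for petite and circles for aerobic cells. All 18 cytosolic rows lie left of 0 in oxygen-limited and petite cells, ALA1 stands alone at 3.89 in aerobic cells, and the mitochondrial rows lie on both sides of 0.

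Among the 3 backgrounds, the sugar difference of the cytosolic class had its smallest median in aerobic cells. The median over the 18 enzymes was -0.75 in oxygen-limited cells and -0.88 in petite cells, against -0.27 in aerobic cells, while the medians over all genes were 0.00, -0.04 and -0.00. All 18 lay below 0 in oxygen-limited cells, where 49.9% of genes did, and in petite cells, where 52.7% did, and 15 did so in aerobic cells, where 50.1% did. At least 2-fold lower were 6 enzymes in oxygen-limited cells (CDC60, ILS1, KRS1, TYS1, WRS1 and HTS1), against 4.24% of genes, and 6 in petite cells (CDC60, ILS1, KRS1, THS1, TYS1 and VAS1), against 5.28%. Only CDC60 was 2-fold lower in aerobic cells, where 2.10% of genes were, and only ALA1 was 2-fold higher, where 3.13% were. For 16 of the 18 the xylose difference was more negative in oxygen-limited than in aerobic cells, against 47.6% of all genes. For 16 it was more negative in petite than in aerobic cells, against 56.3%. The mitochondrial enzymes with values leaned the same way, in 8 of 11 and 9 of 12. Their median shifts were -0.15 and -0.33, against -0.46 and -0.56 for the cytosolic enzymes. With 1 array per condition this difference between backgrounds was not tested, and all of these counts use the same aerobic pair.

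Among the enzymes that serve both compartments, the histidyl enzyme HTS1 read 458 on xylose and 950.1 on glucose in oxygen-limited cells, 560.5 and 1075 in petite cells, and 1611 and 1863 in aerobic cells. The valyl enzyme VAS1 read 378 and 594, 270.2 and 548, and 826 and 928 in the same order. The glycyl enzyme GRS1 read 617 and 828, 543 and 946, and 1029 and 1458. Xylose was the lower array in 3 of 3 pairs for HTS1, VAS1 and GRS1, whose estimates lay between -0.73 and -0.58. ARC1 read 963 on xylose and 1189 on glucose in oxygen-limited cells, 651 and 1099 in petite cells, and 1694 and 1982 in aerobic cells. It too was lower on xylose in each pair, by less than the cytosolic median (estimate -0.43, SE 0.173, limma adjusted p = 0.233).

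ALA1 (YOR335C), the alanyl enzyme of both compartments, went against the class on 1 array. It read 483 on xylose and 607 on glucose in oxygen-limited cells, 490.1 and 688 in petite cells, and 1138 and 76.6 in aerobic cells. The aerobic glucose value lay 2.66 below its next lowest array on the log2 scale, while on the other 5 it was highest on aerobic xylose and lower on xylose than on glucose in oxygen-limited and in petite cells. Of all genes in the fit, 2 were at least 4-fold below their other 5 arrays on that array, ALA1 and GPG1. The fitted sugar estimate of ALA1 was 1.03 (SE 0.896, limma adjusted p = 0.533) and became -0.41 without the aerobic glucose array. What set this 1 value was not tested, and there is no second probe set for ALA1.

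None of the 13 mitochondrial enzymes passed the test for sugar. Without adjustment 1 of 13, the isoleucyl enzyme ISM1, lay below p of 0.05 on the higher side, where 12.0% of all genes did. ISM1 read 112 on xylose and 95.7 on glucose in oxygen-limited cells, 135 and 94.8 in petite cells, and 139 and 102 in aerobic cells. Xylose was the higher array in each pair, and the 3 xylose values lay above the 3 glucose values (estimate 0.39, SE 0.150, limma adjusted p = 0.220). The other mitochondrial estimates ran from -0.36 for MST1 to 0.26 for DIA4, and 9 of 13 lay above 0. DIA4, the seryl enzyme, read 151 and 121 in oxygen-limited cells, 99.2 and 98.6 in petite cells, and 118 and 85.7 in aerobic cells, with xylose first. Its sugar difference was below 0.5 in every background. Both oxygen-limited values lay above all petite and aerobic values, while the petite values lay between the aerobic ones.

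The aspartyl enzyme MSD1 and the asparaginyl enzyme SLM5 were also higher on xylose in 3 of 3 pairs, with estimates of 0.23 and 0.17. NAM2, the leucyl enzyme that is also known to help splice mitochondrial introns, read 309 on xylose and 279 on glucose in oxygen-limited cells, 232 and 264 in petite cells, and 275 and 240.2 in aerobic cells. Of the 32 genes it had the smallest distance between its highest and lowest array. MSR1, the arginyl enzyme, read 242 and 348, 212 and 269, and 326 and 285 in the same order, so its sugar difference was below 0 in oxygen-limited and petite cells and above 0 in aerobic cells.

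Oxygen-limited cells were compared with aerobic cells on both sugars, which asks how the condition acts on either carbon source. The cytosolic synthetases were lower in oxygen-limited cells, with a median of -0.93 over 18 enzymes, and 11 of them passed the test, all on the lower side. Over all genes 16.0% were called lower and 8.04% higher, and the median was -0.08. Estimates lay below 0 for 16 of the 18, against 55.4% of all genes, and 15 were lower without adjustment, against 25.9%. The 13 mitochondrial enzymes had a median of -0.40 and 9 estimates below 0, with 1 called lower and 0 called higher. Over the 11 that lay above the floor on all arrays the median was -0.20. The 1366 brightest genes had a median of -0.35 with 286 called lower, so bright genes in general lay lower on these arrays.

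DED81, the asparaginyl enzyme, read 212 on xylose and 360.5 on glucose in oxygen-limited cells, against 995 and 1174 in aerobic cells. The oxygen-limited values lay well below both aerobic ones, a 3.91-fold fall (log2 -1.97, SE 0.219, limma adjusted p = 0.0178). TYS1 read 179 and 392 in oxygen-limited cells, against 806 and 994 in aerobic cells. It fell 3.38-fold (log2 -1.76, SE 0.303, limma adjusted p = 0.0235), with no overlap between the groups. KRS1, with the values given above, fell 2.77-fold (log2 -1.47, SE 0.296, limma adjusted p = 0.0294).

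THS1, the threonyl enzyme, read 455 on xylose and 767 on glucose in oxygen-limited cells, against 1415 and 1773 in aerobic cells, and fell 2.68-fold (limma adjusted p = 0.0229). HTS1 fell 2.63-fold (limma adjusted p = 0.0271), and the groups of both genes stood apart. MES1, the methionyl enzyme, read 462 and 770.4 in oxygen-limited cells, against 1121 and 1459 in aerobic cells, and fell 2.14-fold (limma adjusted p = 0.0274). FRS1 and FRS2, which encode the beta and alpha subunits of the phenylalanyl enzyme, moved alike. FRS1 read 883 and 1473 in oxygen-limited cells, against 2250.2 and 2336 in aerobic cells, and fell 2.01-fold (limma adjusted p = 0.0443). FRS2 read 246 and 469, against 658 and 748, and fell 2.07-fold (limma adjusted p = 0.0365).

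CDC60, GRS1 and ILS1 made up the rest of the 11, with falls of 1.88-fold, 1.71-fold and 1.68-fold and limma adjusted p of 0.0273, 0.0430 and 0.0391. For CDC60 and ILS1 the groups overlapped, since the oxygen-limited glucose array stood above the aerobic xylose array, and the difference held within each sugar. GUS1, the glutamyl enzyme, read 708 on xylose and 1023 on glucose in oxygen-limited cells, against 1679 and 1622 in aerobic cells. It stood as far below as some called genes but missed the threshold (log2 -0.95, SE 0.281, limma adjusted p = 0.0626). VAS1 at -0.89 (0.0588), DPS1 at -0.61 (0.0763) and WRS1 at -0.59 (0.0810) missed it as well, with the limma adjusted p in parentheses, as did ARC1 at -0.78 (limma adjusted p = 0.0530).

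GLN4, the glutaminyl enzyme, and ALA1 were the 2 cytosolic enzymes with an estimate above 0, that of ALA1 being 0.87 with its low aerobic glucose array included. GLN4 read 388 on xylose and 599 on glucose in oxygen-limited cells, against 352 and 527 in aerobic cells. The oxygen-limited array was the higher one on each sugar, by 0.14 and 0.18, and the estimate of 0.16 (SE 0.174) did not pass (limma adjusted p = 0.515). SES1, the seryl enzyme, read 1155 and 1288 in oxygen-limited cells, against 1549 and 1699.8 in aerobic cells, a difference of -0.41 (SE 0.213, limma adjusted p = 0.205).

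The 11 calls rested on the spread estimated from all 6 arrays and on the scaling. Without the petite pair, or without the aerobic glucose array, 0 of the 18 passed and 0 of all genes were called lower. With the values as deposited 5 passed, with quantile normalization 3, and with all dim genes kept in the adjustment 3. The deposited values put the median of all genes at 0.21 and that of the cytosolic enzymes at -0.58, so their distance from all genes was kept, while quantile normalization gave 0.02 and -0.54.

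**Figure D3:**
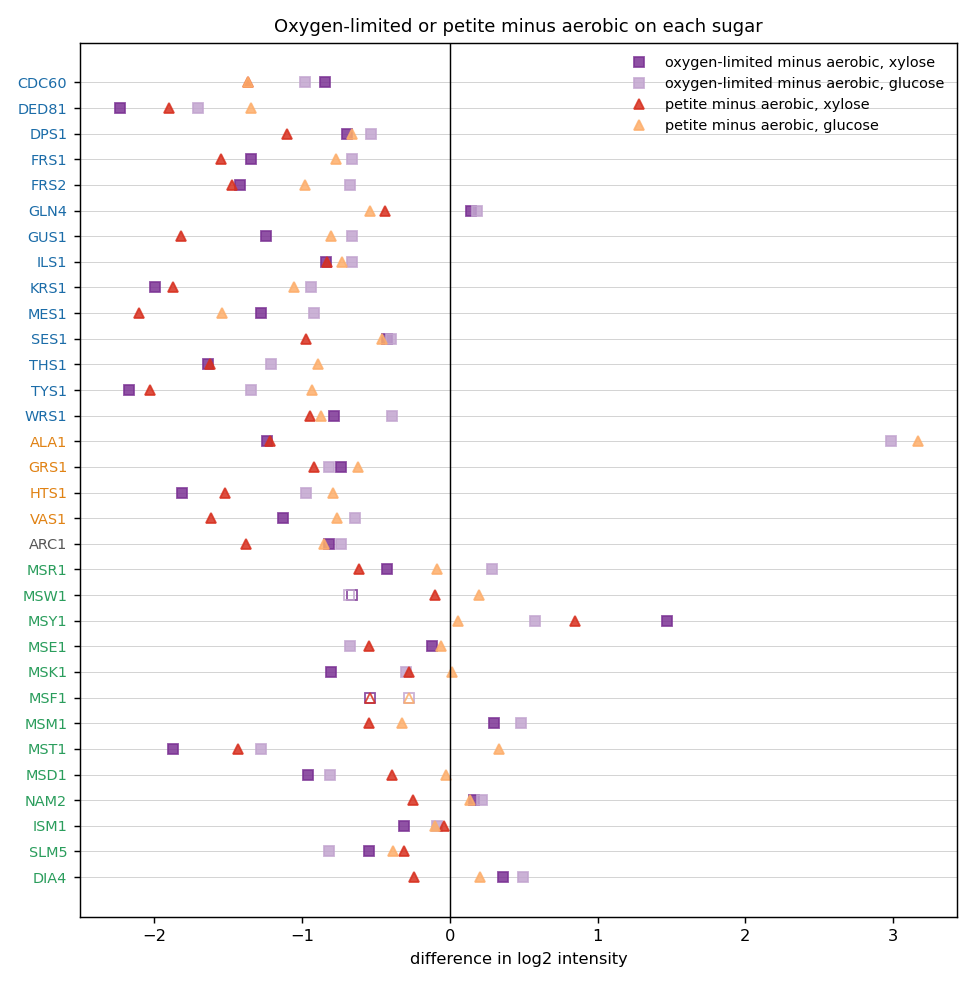
The horizontal axis gives the difference in log2 intensity of oxygen-limited or petite cells minus aerobic cells on the same sugar, and each row is 1 gene; open symbols are bounds where the oxygen-limited or petite array lay at the floor. The cytosolic rows lie mostly left of 0 and further left on xylose than on glucose, ALA1 on glucose lies near 3 on the other side, and MSY1 on xylose reaches 1.47.

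MSD1, the mitochondrial aspartyl enzyme, was the member of its class that passed the test. It read 125 on xylose and 104 on glucose in oxygen-limited cells, against 242 and 183 in aerobic cells. The groups did not overlap, and MSD1 fell 1.85-fold (log2 -0.89, SE 0.189, limma adjusted p = 0.0319), although the call was lost in 3 of 10 alternatives, among them the values as deposited. SLM5 read 134 and 107 in oxygen-limited cells, against 196 and 188 in aerobic cells, a difference of -0.68 just outside the threshold (limma adjusted p = 0.0501). The tryptophanyl enzyme MSW1 lay below the floor on both oxygen-limited arrays, against 97.7 and 99.1 in aerobic cells, and the phenylalanyl enzyme MSF1 lay below it on all 4 oxygen-limited and petite arrays, against 89.6 and 74.7 in aerobic cells. Their differences are bounds, of -0.66 or lower for MSW1 and -0.28 or lower for MSF1 on the log2 scale.

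MSY1 (YPL097W), the mitochondrial tyrosyl enzyme, went the other way. It read 336 on xylose and 255 on glucose in oxygen-limited cells, against 121 and 171 in aerobic cells. Both oxygen-limited values lay above both aerobic ones, with an estimate of 1.02 (SE 0.274) that narrowly missed the threshold (limma adjusted p = 0.0508) and passed in 3 of 10 alternatives. DIA4 and the methionyl enzyme MSM1 had estimates of 0.43 and 0.39, and MSM1 read 205 on xylose and 211 on glucose in oxygen-limited cells, against 167 and 151 in aerobic cells. With the values as deposited MSY1, MSM1 and DIA4 were called higher and 0 mitochondrial enzymes lower, so the split of calls in this class depended on the scaling.

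MST1 (YKL194C), the mitochondrial threonyl enzyme, read 63.5 on xylose and 71.4 on glucose in oxygen-limited cells, against 232 and 173 in aerobic cells. It was 2.98-fold lower, the furthest of its class, without passing the test (log2 -1.58, SE 0.427, limma adjusted p = 0.0522). Its probe set is the only one of the 32 in the highest-numbered stretch of the array, which holds 516 genes above the floor on all arrays. Their median difference was -0.38 on xylose and -0.53 on glucose, against -0.05 and -0.08 for 3900 genes with lower numbers. With the trend along probe set numbers removed the MST1 estimate was -1.19 (limma adjusted p = 0.0784).

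The respiration-deficient mutant was compared with aerobic YSX3 on both sugars, and this comparison shares its aerobic arrays with the one above. The cytosolic enzymes had a median of -1.17 against -0.11 for all genes, and the mitochondrial enzymes one of -0.21, which became 0.07 with the values as deposited. None of the 32 members passed the test, and over all genes 1 was called higher and 1 lower, 0.0183% each. Without adjustment 17 of the 18 cytosolic enzymes lay below p of 0.05 on the lower side, where 22.2% of all genes did, and 0 of the 13 mitochondrial enzymes did. Estimates lay below 0 for 17 of the 18 cytosolic enzymes and for 11 of the 13 mitochondrial enzymes, against 58.2% of all genes. In single pairs, 12 of the 13 mitochondrial enzymes lay below 0 on xylose, where 57.7% of genes did, and 7 of 13 on glucose, where 58.4% did. The sign of the mitochondrial class thus depended on the sugar and on the scaling. The 1366 brightest genes had a median of -0.36.

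MES1 had the lowest estimate. It read 260.4 on xylose and 502 on glucose in petite cells, against 1121 and 1459 in aerobic cells. Both petite values lay below both aerobic ones, with differences of -2.11 on xylose and -1.54 on glucose (estimate -1.82, SE 0.212, limma adjusted p = 0.0516). DED81 read 266 and 463 in petite cells, against 995 and 1174 in aerobic cells (estimate -1.62, limma adjusted p = 0.0516). TYS1 read 197 and 521, against 806 and 994 (estimate -1.48, limma adjusted p = 0.0543). The groups of both genes stood apart.

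GUS1 read 475 on xylose and 930.0 on glucose in petite cells, against 1679 and 1622 in aerobic cells, an estimate of -1.31 (limma adjusted p = 0.0564). ARC1, whose product binds the MES1 and GUS1 enzymes, had an estimate of -1.11 (SE 0.212, limma adjusted p = 0.0540), close to the cytosolic median. GLN4 read 260.1 and 361 in petite cells, against 352 and 527 in aerobic cells, and differed by -0.44 on xylose and -0.54 on glucose (limma adjusted p = 0.124). GLN4 thus lay below its aerobic value in petite cells and above it in oxygen-limited cells, on each sugar.

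As with oxygen limitation, the cytosolic difference was larger on xylose. For each gene this gap between sugars equals the gap between backgrounds in the sugar difference given above, so it is no further observation. At least 2-fold lower were 13 of the 18 enzymes in petite against aerobic cells on xylose, where 13.5% of genes were, and 4 of them (CDC60, DED81, KRS1 and MES1) on glucose, where 5.07% were. The class medians were -1.50 on xylose and -0.80 on glucose. In oxygen-limited against aerobic cells 11 were 2-fold lower on xylose, where 15.4% of genes were, and 3 on glucose, where 11.6% were, with medians of -1.24 and -0.67. Of all 32 members, ALA1 alone was at least 2-fold higher on glucose in oxygen-limited cells (4.52% of genes) and in petite cells (4.72% of genes), and MSY1 alone on xylose in oxygen-limited cells (9.36% of genes). In petite cells MST1 read 86.2 on xylose and 218 on glucose, against 232 and 173 in aerobic cells, so it was 2-fold lower on xylose and higher on glucose. MSK1, the lysyl enzyme, read 280.0 and 249 in petite cells, against 339 and 247 in aerobic cells, and 194 and 201.3 in oxygen-limited cells. The glutamyl enzyme MSE1 read 75.3 and 128 in petite cells, against 110.2 and 133 in aerobic cells, and 102 and 83.7 in oxygen-limited cells, so neither gene kept 1 order of the backgrounds on both sugars.

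The 2 compartments can be set side by side by amino acid. For 12 amino acids the 32 genes include a separate enzyme of each, in 13 pairs because the phenylalanyl enzyme of the cytosol has 2 subunits. Arginine and proline were not paired, since the arginyl gene YDR341C and the mitochondrial prolyl gene AIM10 are not among the 32. MSF1 for phenylalanine and MSW1 for tryptophan had arrays at the floor, so pairs were counted where both enzymes lay above it on all arrays of the comparison. The cytosolic difference was below the mitochondrial one in 10 of these 10 pairs for xylose against glucose, with a median distance of -0.74. For isoleucine it was -1.45, with ILS1 at -1.06 and ISM1 at 0.39, and for glutamate it was -0.23, with GUS1 at -0.48 and MSE1 at -0.25. In petite against aerobic cells it was below in 11 of 11, with a median of -1.01. In oxygen-limited against aerobic cells it was below in 8 of 10, with a median of -0.88. The exceptions were aspartate (DPS1 and MSD1, 0.27) and threonine (THS1 and MST1, 0.15). For tryptophan MSW1 was only bounded there, which puts WRS1 at least 0.08 above it. For phenylalanine MSF1 had a bound of -0.41 in oxygen-limited and in petite cells, so its order against FRS1 and FRS2 was not determined in either. Tyrosine had the widest distance there at -2.78, with TYS1 at -1.76 and MSY1 at 1.02.

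**Figure D4:**
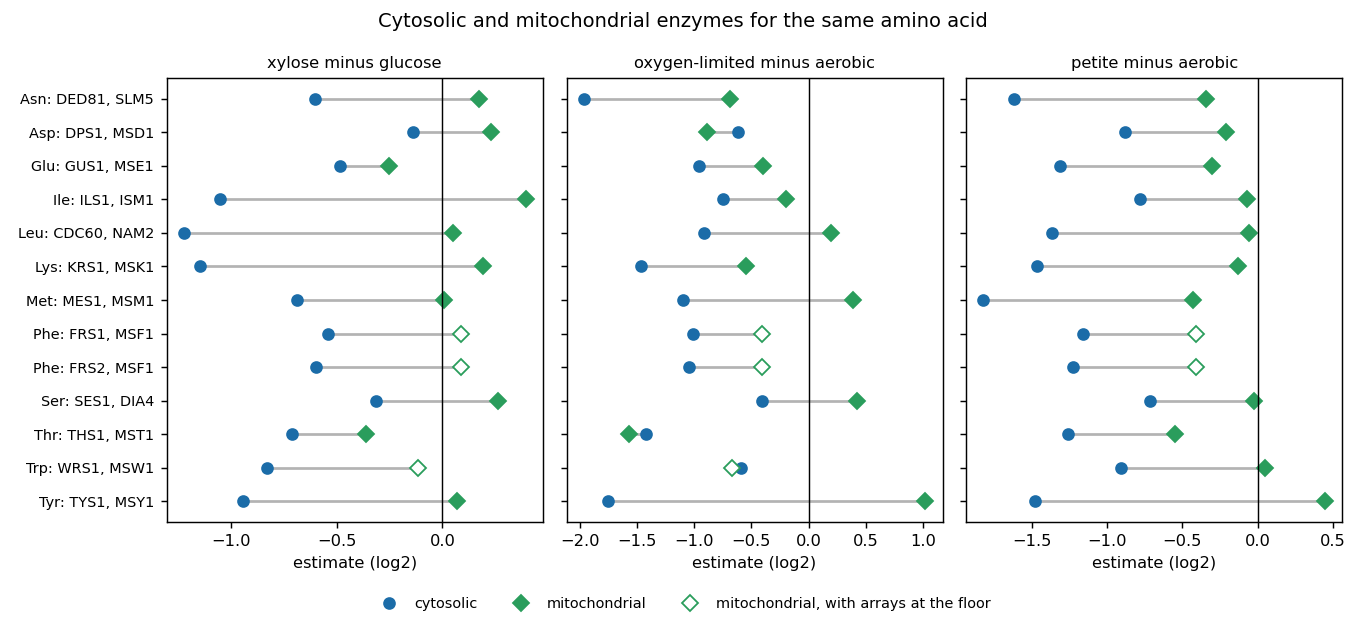
Each row joins the fitted log2 difference of the cytosolic enzyme (circle) and the mitochondrial enzyme (diamond) for the same amino acid, in 1 panel for each comparison; open diamonds are enzymes with arrays at the floor. The circles lie left of the filled diamonds in all rows except aspartate and threonine in the middle panel.

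Over the whole classes, the cytosolic median minus the mitochondrial one was -0.67 for xylose against glucose, -0.54 for oxygen-limited against aerobic and -0.96 for petite against aerobic cells, with MSW1 and MSF1 included. Over the alternatives tried the difference ran between -0.82 and -0.62 for sugar and between -1.23 and -0.75 for petite cells. For oxygen-limited cells it ran between -0.92 and -0.10, with the smallest size under quantile normalization, where the class medians were -0.54 and -0.44. Scaled intensities ran between 76.6 and 2431 in the cytosolic class and between the floor of 61.7 and 348 in the mitochondrial class, and the part of intensity in the class difference was not tested beyond those alternatives. By the 2 structural classes of synthetases, which differ in the fold of the catalytic domain, the cytosolic sugar medians were -0.76 for the 8 enzymes of class I and -0.59 for the 10 of class II, with no test.

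**Figure D5:**
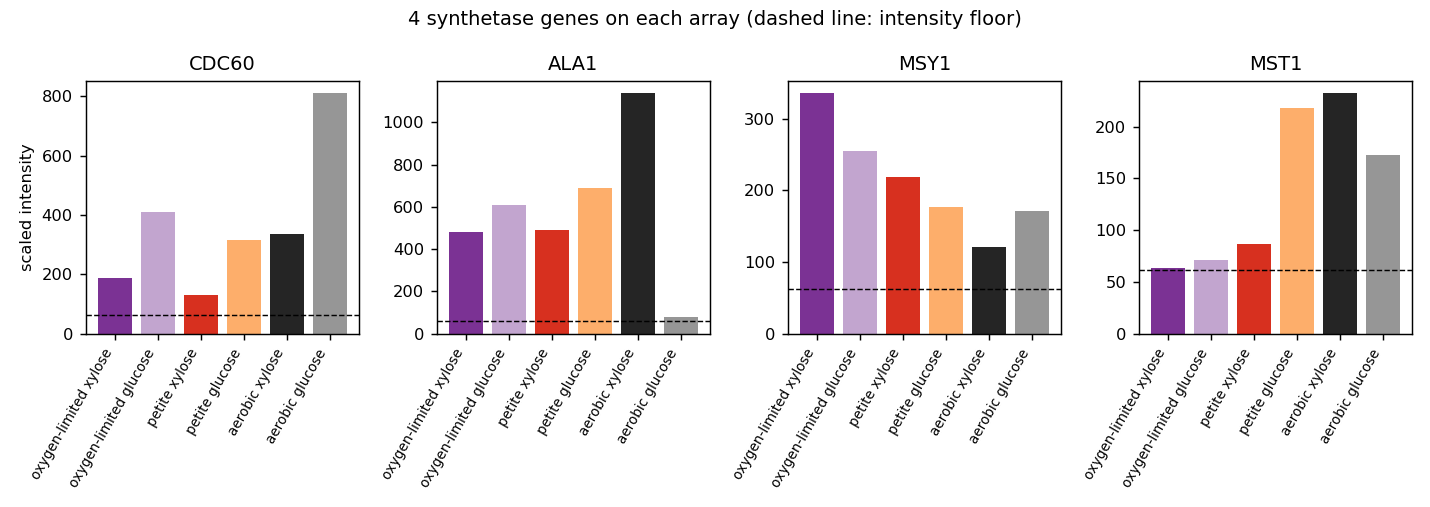
Bars give the scaled intensity of CDC60, ALA1, MSY1 and MST1 on each of the 6 arrays, and the dashed line is the floor at 61.7. CDC60 is lower on xylose in each pair of bars, ALA1 reads 76.6 on aerobic glucose alone, MSY1 reaches 336 on oxygen-limited xylose, and MST1 lies near the floor on both oxygen-limited arrays.

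Other genes that charge or handle transfer RNAs were read from lists, whose calls in oxygen-limited cells stand beside 16.0% called lower and 8.04% called higher over all genes. Of 5 further synthetase genes, the cysteinyl gene CRS1 was called lower in oxygen-limited cells, reading 129 on xylose and 274 on glucose, against 455 and 497 in aerobic cells (log2 -1.34, limma adjusted p = 0.0400). The arginyl gene YDR341C had -0.81 for sugar, -1.01 for oxygen-limited and -1.30 for petite cells, and YHR020W had -0.80, -0.77 and -1.19, while 0 of these passed. GRS2, a second glycyl gene, had 0.02, 0.08 and -0.13, and AIM10, which encodes the mitochondrial prolyl enzyme, had 0.08, 0.05 and -0.45. CRS1, YDR341C and YHR020W lay within the range of the 14 cytosolic-only enzymes in each comparison (-1.22 to -0.14, -1.97 to 0.16 and -1.82 to -0.49). GRS2 and AIM10 lay above that range for sugar and in petite cells, and within it in oxygen-limited cells.

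Of 11 mitochondrial translation and charging factors, 0 were called for sugar, with a median of 0.27. In oxygen-limited cells the elongation factor genes TUF1 (log2 -1.51, limma adjusted p = 0.0202) and MEF1 (-0.69, limma adjusted p = 0.0494) fell. GTF1, a subunit of the amidotransferase that makes mitochondrial glutaminyl-tRNA, rose by 1.31 (limma adjusted p = 0.0252). The other 8 were not called, and the shares of 18.2% lower and 9.09% higher were near those over all genes. Of 11 cytosolic elongation and release factors 7 were measured, with 0 called for sugar and 5 (71.4%) called lower in oxygen-limited cells, among them TEF4 at -1.94 and SUP45 at -1.33 (limma adjusted p = 0.0202 each). Their medians were -0.13 for sugar, -0.91 for oxygen-limited and -0.91 for petite cells.

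Of 13 genes of transfer RNA maturation and export, 0 were called for sugar, and in oxygen-limited cells 4 (30.8%) were called lower and 1 (7.69%) higher. LHP1, a transfer RNA chaperone, fell by 1.35 and the phosphotransferase TPT1 rose by 1.20 (limma adjusted p = 0.0179 and 0.0294). The splicing endonuclease subunit SEN34 lay at the floor on both oxygen-limited arrays, so its fall of 1.22 (limma adjusted p = 0.0204) is a bound. Of 13 genes of general amino acid control, 0 were called for sugar and 6 (46.2%) were called lower in oxygen-limited cells, led by the translation initiation factor genes SUI2 at -1.85 and GCD11 at -1.58 (limma adjusted p = 0.0178 and 0.0186). The GCN4 transcript itself had 0.67 for sugar (SE 0.210, limma adjusted p = 0.181) and was higher on xylose in 3 of 3 pairs. Of 24 measured genes of amino acid synthesis that Gcn4 is known to activate, HIS4 was called lower on xylose (log2 -1.32, limma adjusted p = 0.0435), where 0.0732% of all genes were, and the median was -0.54. Sugar estimates lay below 0 for 19 of the 24 and above 0 for 5, against 53.2% of all genes below 0. The highest were LYS9 at 1.79 and LYS20 at 1.43 (limma adjusted p = 0.209 and 0.190). In oxygen-limited cells 5 of the 24 (20.8%) were called lower and 1 (4.17%) higher, the arginine gene ARG1 at 2.89 (limma adjusted p = 0.0273), against 16.0% and 8.04% of all genes. In petite cells 0 members of these lists were called.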

How the data were processed

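RNA of 6 cultures was measured on Affymetrix yeast arrays, 1 for each condition. The deposited values are intensity on a linear scale, 1 for each probe set, per the labels. How the authors summarised and scaled them is not given in the sources used here. The table held 9335 probe sets, and 9274 were yeast ones with a value, and 6504 of these had 1 gene symbol. The medians of all arrays were made equal, a floor was set at the 25th percentile (61.7), log2 was taken, and for each gene the probe set with the highest mean was kept. Genes above the floor on 1 array or more were fitted with background and sugar as terms in limma 3.58.1 (R 4.3.3). The fit has 2 residual degrees of freedom, and p-values were adjusted by Benjamini-Hochberg over 5462 genes, with calls at 0.05. An effect of sugar that differs between backgrounds counts as error in this fit, so p-values rest on how far pairs of arrays depart from a common effect. Single pairs are described without a test. As alternatives, the scaling was left out or replaced by quantile normalization, the floor was moved to the 10th or the 40th percentile, dim genes were kept, probe sets were averaged, limma was given a variance trend, a running median along probe set numbers was removed, and each pair was left out.

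Members and lists were chosen with earlier results of these data known. Full values were given for members called, for the 5 highest and 5 lowest per comparison and for those 2-fold apart in a pair, which named 26 members. Genes of other lists were named from those called or among the 2 highest or lowest, with YHR020W added. Not every called gene of these lists was named, while the counts of calls cover all genes measured in each list. The remaining 6 members were given values after these had been seen. RRS1, listed among the synthetases by mistake, was replaced by YDR341C. A planned count of promoter motifs was not run, since no sequences were used here. The steps were tested on simulated data. The number of arrays limits the precision.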

Additional observations from a re-analysis of the deposited data

Results flagged for a closer look

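ALA1 moved in opposite directions on the 2 sugars. In oxygen-limited against aerobic cells it differed by -1.24 on xylose and by 2.99 on glucose on the log2 scale, and in petite against aerobic cells by -1.22 on xylose and by 3.17 on glucose. The comparisons on glucose share the aerobic glucose array, on which ALA1 read 76.6. With 1 array per condition the difference between the sugars was not tested.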

How the results depend on the processing

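The fit with background and sugar as terms already compares the arrays in pairs, and no replicate block could be added because each condition has 1 array without a replicate number. The count of cytosolic enzymes called lower on xylose was 2 with the floor at the 10th percentile and 0 with quantile normalization, the floor at the 40th percentile, mean probe sets, the probe set number trend removed, no filter, or without the aerobic glucose array, an alternative chosen after seeing the data. Leaving out 1 pair gave 0 called members in every comparison that could be refitted, with 1 residual degree of freedom. The cytosolic sugar median ran between -0.82 and -0.55 without 1 pair, with -0.82 without the aerobic pair or the aerobic glucose array.

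In oxygen-limited cells the cytosolic enzymes called lower numbered 5 as deposited, 3 with quantile normalization, 3 with no filter and 0 without the aerobic glucose array. Their median was -0.58 as deposited and -0.54 with quantile normalization, and ran between -1.30 and -0.93 without that array or the petite pair. Mitochondrial enzymes called higher numbered 3 as deposited, 1 with the 10th percentile floor and 1 with the trend removed. Those called lower numbered 0 as deposited, 4 and 2 with the 10th and 40th percentile floors, 2 with mean probe sets, 2 with the trend removed, 3 with the variance trend and 0 without the array. Their median was -0.042 as deposited and -0.11 with the 40th percentile floor, and the class difference was -0.10 with quantile normalization, -0.83 with that floor and -0.92 without the array.

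In petite cells the cytosolic enzymes called lower numbered 3 as deposited, 10 with the 10th percentile floor and 4 with the variance trend. Their median was -0.89 as deposited and -0.94 with quantile normalization, and ran between -1.52 and -1.17 without the array or the oxygen-limited pair. The mitochondrial median was 0.072 as deposited. The class difference was -0.75 with quantile normalization and ran between -1.23 and -0.96 without the array or the oxygen-limited pair.

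Among single pairs, the oxygen-limited glucose medians as deposited were -0.29 (cytosolic) and 0.083 (mitochondrial), with -0.30 for cytosolic under quantile normalization. On xylose they were -0.91 and -0.10, with -0.86 under quantile normalization. The petite glucose medians were -0.49 and 0.28 as deposited. Using deposited values moved the median of all genes to 0.21 in oxygen-limited and 0.11 in petite cells, against -0.08 and -0.11, and the cause of the other shifts was not tested. The other 268 recomputed class values stayed within 1.5 times of a count or within the error of a median. With the 40th percentile floor, 9 single-pair differences of the named mitochondrial enzymes had both arrays at the floor and gave no value.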
